A study of Mus musculus with 7 samples.

Results

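PU.1 peaks whose centre lay more than 100 kb from the nearest annotated transcription start site (TSS) were taken from 3 ChIP-Seq peak lists on the mm9 mouse genome, chromosomes 1 to 19 and X. These far peaks were 4849 of 76159 in myeloid precursors (MPs), 4423 of 71879 after 36 h of RANKL and 4815 of 76993 in osteoclasts (OCs), or 14087 of 225031 peaks in all. Merging peaks that overlapped by at least 1 bp gave 6761 far loci among 102266 loci. The rule used position and no peak height, time or partner factor.

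The cells were flushed from the bone marrow of C57BLACK6 mice aged 4 to 6 weeks and grown for 3 days with 50 ng/ml CSF1. The MP libraries came from cells given CSF1 only. The other libraries came from cells given 50 ng/ml CSF1 together with 100 ng/ml RANKL for 36 h or 72 h, the last of which are the OCs. Chromatin was precipitated with antibodies to PU.1 or MITF at each of these 3 times and with IgG in MPs. Each of the 7 conditions was 1 library with no replicate, so no p-value between times is given and intervals cover counting error only. Neighbouring peaks share a library and often a domain, and are not independent replicates of a condition. The lists hold binding sites and no RNA, so the labelled cell types could not be checked against marker expression.

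PU.1 is an ETS-family transcription factor needed for the myeloid lineage, and it binds DNA at sequences built around the bases GGAA. CSF1 sustains macrophage precursors, and RANKL turns them into multinucleated cells that resorb bone. MITF is a basic helix-loop-helix factor that works with PU.1 at osteoclast genes and recognises E-boxes such as CACGTG or CATGTG. Enhancers can act on a gene from far away along the chromosome, so a site in a stretch without genes cannot be given a target from its position alone.

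The sequences of 5 far sites are shown because each carries one of the patterns described here. They were read from the plus strand of mm9 in the 5′ to 3′ direction, and capitals mark each GGAA or its complement TTCC. The first is the far locus with the highest score over the 3 lists, at chr13:37543524-37543674 between Ly86 and Rreb1. The second, at chr10:15809257-15809407 between Nmbr and Cited2, is the locus farthest from a TSS that had a peak at all 3 times. The third, at chr16:70803904-70804054 between 4930423O20Rik and Robo1, had the highest MITF score among far PU.1 loci. The fourth lay at chr6:98796369-98796519 between Gm765 and Foxp1, and the fifth at chr15:59362368-59362518 in the annotated span of Nsmce2. Among far loci with a peak in both MPs and OCs, these had the largest gain and the largest loss from MPs to OCs.
highest: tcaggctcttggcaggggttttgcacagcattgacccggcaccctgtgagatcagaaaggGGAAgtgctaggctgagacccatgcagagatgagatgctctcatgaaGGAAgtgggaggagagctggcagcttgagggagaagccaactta
farthest at all times: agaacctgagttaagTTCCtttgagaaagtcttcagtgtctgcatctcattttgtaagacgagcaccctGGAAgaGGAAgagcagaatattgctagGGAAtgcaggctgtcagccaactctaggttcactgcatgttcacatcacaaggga
highest MITF score: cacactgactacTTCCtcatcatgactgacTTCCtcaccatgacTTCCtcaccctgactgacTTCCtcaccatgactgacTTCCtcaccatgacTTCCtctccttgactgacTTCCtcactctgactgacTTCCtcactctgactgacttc
largest gain: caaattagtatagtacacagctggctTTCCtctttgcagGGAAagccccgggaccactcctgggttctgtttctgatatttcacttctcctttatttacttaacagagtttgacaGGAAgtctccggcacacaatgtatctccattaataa
largest loss: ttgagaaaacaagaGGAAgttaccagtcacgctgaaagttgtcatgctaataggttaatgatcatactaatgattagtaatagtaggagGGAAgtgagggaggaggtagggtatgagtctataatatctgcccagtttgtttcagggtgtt

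The site with the highest MITF score is a tandem repeat in which the longer PU.1 core GAGGAA, read on either strand, occurred 8 times. The highest site of the lists held no GAGGAA and had 2 GGAA cores. The farthest site held 4 GGAA cores, the gained site 3 and the lost site 2, and each of these 3 sites had a single GAGGAA. None of the 5 windows held either E-box or TGANTCA, the motif of AP-1 factors such as FOS and JUN.

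Called PU.1 peaks were sparser per Mb of non-gap sequence the farther the sequence was from a gene start. Sequence to which reads cannot be mapped was not taken out, and its part in these densities was not tested. Far sequence made up 562.5 Mb, or 22.0% of the non-gap sequence, and held 6.37% of the MP peaks (95% Wilson interval 6.20 to 6.54), 6.15% of the 36 h peaks (5.98 to 6.33) and 6.25% of the OC peaks (6.08 to 6.43). In MPs this was 8.62 far peaks per Mb against 35.8 per Mb within 100 kb. The same densities were 7.86 and 33.8 at 36 h, and 8.56 and 36.2 in OCs.

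The fall continued inside the far sequence. In MPs there were 11.6 peaks per Mb at 100 to 200 kb, 5.65 at 200 to 500 kb and 2.59 beyond 500 kb. In OCs these densities were 11.5, 5.68 and 2.54. The order of the distance classes was the same at the 3 times, as the plot of density by distance shows. The median far peak lay 149510 bp from a TSS in MPs, 148919 bp at 36 h and 149258 bp in OCs.

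**Figure D1:**
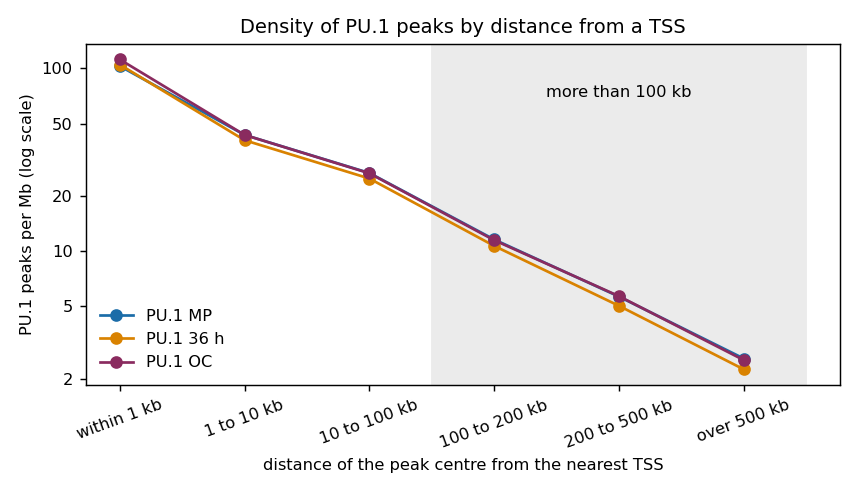
PU.1 peaks per Mb of non-gap sequence (log scale) by distance of the peak centre from the nearest TSS, with 1 point per list and distance class and the classes beyond 100 kb shaded. In MPs the density was 103 per Mb within 1 kb and 2.59 per Mb beyond 500 kb, and the 3 lists lie close to each other.

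The limit of 100 kb cuts through a continuous range. The nearest MP peaks inside it lay at 100008 bp with a score of 49.5 and at 100029 bp with 25.6, and the nearest outside lay at 99946 bp with 22.2 and at 99958 bp with 10.2. In the 36 h list the scores were 60.6 and 25.1 just inside, and 17.7 and 39.9 just outside. In the OC list both peaks just inside had a score of 44.1, and those just outside had 11.7 and 22.0. One far locus had peaks on both sides of the limit.

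Far loci were unevenly spread over chromosomes. Chromosome 13 held 750 of them, or 24.8 per Mb of its far sequence, followed by chromosome 10 with 18.8 and chromosome 15 with 18.5. Chromosome X held 37 far loci, or 2.36 per Mb, against 12.3 over the autosomes. The deficit on X was not limited to far sequence, since X had 14.8 loci per Mb within 100 kb of a TSS and the autosomes 50.5. Of the far loci, 1810 (26.8%) had their centre inside the span of a protein-coding gene and 4951 (73.2%) lay between such genes.

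Far peaks carried somewhat fewer tags than other PU.1 peaks. A tag is 1 read position counted by the peak caller, and the deposited score is the tag count scaled to library size. The median far peak had 12 tags in MPs (95% interval of the median 12 to 13), 13 at 36 h (13 to 14) and 14 in OCs (14 to 14), against 14, 16 and 16 for the other peaks. Peaks at the lowest tag count of their list made up 13.9% of far and 11.1% of other MP peaks, a difference of 2.83 percentage points (1.86 to 3.86). The corresponding differences were 3.35 points (2.36 to 4.41) at 36 h and 2.99 points (2.05 to 3.98) in OCs.

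High peaks were nevertheless found far from a TSS. In MPs 436 far peaks (8.99%) were among the highest 10% of their list, against 10.3% of other peaks. These counts were 361 (8.16%) at 36 h and 425 (8.83%) in OCs, against 10.2% and 10.3%. The highest far score was 315.6 in MPs, 308.9 at 36 h and 273.1 in OCs, while the highest other scores were 414.5, 372.5 and 356.8.

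The far locus between Ly86, which encodes the toll-like receptor partner MD-1, and the transcription factor gene Rreb1 scored 315.6 in MPs, 294.1 at 36 h and 265.8 in OCs. A further locus of that interval, 120149 bp from Rreb1, scored 307.0, 270.5 and 259.9 in the same order. A locus within Gpc6, a heparan sulfate proteoglycan gene, and 426685 bp from Dct scored 313.9, 270.5 and 273.1. These 3 loci were among the 5 highest of at least 2 lists and had a peak at each time.

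Further leading far peaks are given here with a flanking coding gene. A locus 205760 bp from Runx1, a transcription factor of blood cell development, scored 310.5 in MPs, 267.5 at 36 h and 233.5 in OCs. A locus 429603 bp from Mef2c scored 301.9, 235.0 and 265.8. One 209103 bp from Klf4, a zinc finger factor of monocytes, scored 271.2, 263.1 and 262.9. One 162428 bp from Irf2bp2 scored 308.7, 279.4 and 242.3. The first 5 MP peaks also held a locus between Gm9931 and Pla2g4a, which encodes a phospholipase that releases arachidonic acid, with scores of 313.9, 192.2 and 220.3, and one between Wdr11 and Fgfr2 with 308.7, 215.8 and 248.2. Every locus named in this paragraph had a peak at all 3 times.

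The sites farthest from any TSS were low. The farthest lay 1152576 bp from Olfm4 and was seen in MPs only, with a score of 13.6. The next lay 1088751 bp from Cdc73 and scored 15.4 in MPs and 11.7 in OCs, and the next, between D3Ertd751e and Pcdh10, scored 10.2 in MPs alone. The farthest locus seen at all 3 times, between Nmbr and Cited2 and printed above, lay 1027278 bp from a TSS and scored 13.6, 10.3 and 16.2.

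Most far peaks were found again at another time. Of the far MP peaks, 3357 (69.2%, 67.9 to 70.5) overlapped a 36 h peak and 3612 (74.5%, 73.2 to 75.7) an OC peak. Of the far 36 h peaks, 75.9% overlapped an MP peak and 76.1% an OC peak. Of the far OC peaks, 3612 of 4815 overlapped an MP peak and 3366 (69.9%) a 36 h peak.

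Over whole lists these shares were lower than those of other peaks at each time. The difference between far and other peaks ranged from -2.59 points (95% Newcombe interval -3.91 to -1.31) for 36 h peaks found in MPs to -5.72 points (-7.07 to -4.40) for OC peaks found at 36 h. Among peaks with scores of at least 2 times the lowest, the difference was instead 3.07 points (1.57 to 4.45) for 36 h peaks found in MPs, 0.52 points for 36 h peaks found in OCs and 0.47 points for OC peaks found in MPs. Sharing rose steeply with tags in both sets. Among far MP peaks with 6 to 9 tags 47.3% had an OC partner, and among those with 50 or more tags 99.6% did.

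Within bins of equal tags the differences shrank. For far MP peaks the difference stratified by tags was -2.41 points (-3.56 to -1.26) with 36 h and -2.17 points (-3.26 to -1.08) with OCs as partner. For OC peaks found in MPs it was 0.07 points (-0.99 to 1.14), and for 36 h peaks found in MPs it was 0.87 points (-0.24 to 1.99). The intervals of the last pair of differences contained 0 once tags were equal. For 36 h peaks found in OCs the difference was -1.55 points (-2.65 to -0.45). For OC peaks found at 36 h it was -2.45 points (-3.59 to -1.32), so both stayed below 0, as did those of MP peaks. Among MP peaks with OC partners, the interval of the difference was below 0 for 6 to 9 tags and for 10 to 14 tags, and contained 0 in the 3 higher bins.

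**Figure D2:**
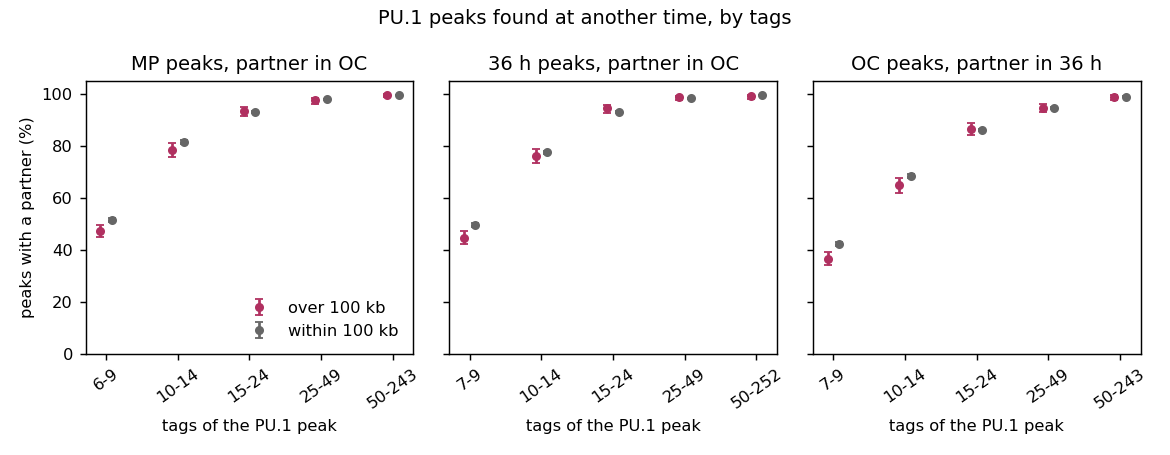
Share of PU.1 peaks (%) that overlapped a PU.1 peak of another time, by tags of the peak, for peaks over 100 kb (red) and within 100 kb (grey) of a TSS, with 95% Wilson intervals. In each panel the share rose with tags, from 47.3% to 99.6% for far MP peaks with OC as partner, and at 15 or more tags the sets differed by at most 1.28 points in these panels. In the lowest bin far minus other was -4.28 points for MP, -4.84 for 36 h and -5.77 for OC peaks.

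By locus, 3014 of 6761 far loci (44.6%, 43.4 to 45.8) had a PU.1 peak at all 3 times, against 50.9% of other loci, a difference of -6.36 points (-7.58 to -5.13). Peaks at 1 time alone made up 890 far loci in MPs, 712 at 36 h and 846 in OCs. A further 344 were shared by MPs and 36 h, 354 by 36 h and OCs, and 601 by MPs and OCs. The last group has a peak before and after the 36 h time and none called in between. The median of the highest tag count was 26 for far loci at all 3 times, 7 for those in MPs alone and 8 for those at 36 h or in OCs alone. Over all far loci it was 12 and over other loci 14, and its part in the differences by locus was not tested.

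A few loci seen at 1 time were well above the detection limit. In OCs a locus within Nav2, a gene of neuronal migration, scored 123.3 with 84 tags, and one between Plcl1 and Hsfy2 scored 80.8 with 55 tags. The next OC locus, between Pard3 and Gm17350, scored 44.1. In MPs the highest lay near Tox and scored 73.3 with 43 tags, followed by 56.3 near Cited2 and 54.6 near Clec14a. At 36 h the highest lay between Kcnrg and Rnaseh2b and scored 68.0 with 46 tags, followed by 62.1 near Gm9869 and 50.3 within Tbc1d22a. None of these 9 loci had an IgG peak, or a MITF peak at the time of its PU.1 peak. MITF was counted at a locus only at times with a PU.1 peak, so each of the 9 had 1 such time. Over all far loci 5.87% had a MITF peak at any such time and 0 had an IgG peak.

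Among loci with a peak at both times compared, few far loci changed in tag count. A ratio was taken after scaling by the median ratio of all pairs, and a change of at least 2-fold was counted. From MPs to OCs, 119 of 3615 far pairs (3.29%) were higher, against a background of 3.00% of all pairs, and 125 (3.46%) were lower, against 2.38%. The far median was -0.02 on the log2 scale. The far share with lower tags exceeded that of other pairs by 1.15 points (0.59 to 1.81), and the far share with higher tags by 0.31 points (-0.24 to 0.96).

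From MPs to 36 h, 111 of 3358 far pairs (3.31%, background 4.02%) were higher and 168 (5.00%, background 3.41%) were lower. Scaling by the deposited scores in place of the median ratio changed this split to 74 higher and 242 lower, since it moved all pairs by -0.12 on the log2 scale. From 36 h to OCs, 93 of 3368 far pairs (2.76%, background 1.97%) were higher and 77 (2.29%, background 2.61%) were lower, and with the deposited scores 130 were higher and 52 lower, with all pairs moved by 0.11. With the further condition that the interval of the tag ratio excluded 1, 67 far pairs were higher from MPs to 36 h (background 2.21%) and 131 (3.90%) lower (background 2.57%). From 36 h to OCs these were 64 (1.90%, background 1.25%) and 43 (1.28%, background 1.47%), and from MPs to OCs 67 (1.85%, background 1.53%) and 80 (2.21%, background 1.47%). The 36 h peaks were 190 bp wide and the others 150 bp, so comparisons with 36 h also compare windows of unequal width.

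The GC content of the sites moved with these differences. Far MP sites had a median GC content of 44.7% in a window of 150 bp and other MP sites 47.3%, while the 36 h list as a whole held sites richer in GC, at 46.0% and 48.7%. From MPs to 36 h, 12.1% of far and 12.6% of other pairs with GC below 40% were lower, against 1.56% and 1.21% of pairs with GC of 50% to 55%. Stratified by GC, the excess of lower far pairs from MPs to 36 h was 0.58 points (-0.17 to 1.34), against 1.70 points without stratification. From MPs to OCs it was 0.60 points (-0.01 to 1.22), and the excess of higher far pairs was 0.80 points (0.21 to 1.39).

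The locus with the largest gain, printed above, lay 181727 bp from Foxp1, a forkhead factor of monocyte differentiation. The locus had 6 tags in MPs, 34 at 36 h and 35 in OCs, so that both RANKL libraries were high. Its log2 ratio of OCs to MPs was 2.35 (exact 95% interval 1.09 to 3.89). The next gains were a locus within D18Ertd653e, with 7, 29 and 32 tags and a log2 interval of 0.79 to 3.42, and one between Ly86 and Rreb1, with 6, 31 and 27 tags and 1.98 (0.67 to 3.54). Each gained locus was already higher at 36 h.

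The largest loss lay within Nsmce2 and 117451 bp from Trib1, which encodes a pseudokinase of myeloid cells. It had 25 tags in MPs, 16 at 36 h and 7 in OCs, with a log2 ratio of -2.03 (-3.48 to -0.78). A locus within Wwox, with the macrophage factor gene Maf as its other flank, had 33, 22 and 11 tags and -1.78 (-2.91 to -0.76). A locus between Fndc3a and Cysltr2, a leukotriene receptor gene, had 23, 18 and 8 tags and -1.72 (-3.09 to -0.50). In these 3 loci the 36 h value lay between the others. These 6 loci were selected as the extremes of all far pairs, so their ratios are a description.

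MITF overlapped far PU.1 peaks about as often as other PU.1 peaks of the same height. A MITF peak of the same time overlapped 302 far MP peaks (6.23%, 5.58 to 6.94), 178 far 36 h peaks (4.02%, 3.48 to 4.64) and 241 far OC peaks (5.01%, 4.42 to 5.66). Of the other peaks, 4995 of 71310 in MPs, 4.65% at 36 h and 5.41% in OCs had one. Stratified by tags, far minus other was -0.01 points (-0.56 to 0.54) in MPs, 0.21 (-0.30 to 0.72) at 36 h and 0.29 (-0.25 to 0.84) in OCs.

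MITF overlap was concentrated in the highest PU.1 peaks. Of far MP peaks with 50 or more tags 47.6% had a MITF peak, and of those with 25 to 49 tags 4.37% did. At 36 h these shares were 32.6% and 2.62%, and in OCs 33.1% and 3.79%. Below 25 tags 4 far MP peaks, 2 far 36 h peaks and 4 far OC peaks overlapped a MITF peak.

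**Figure D3:**
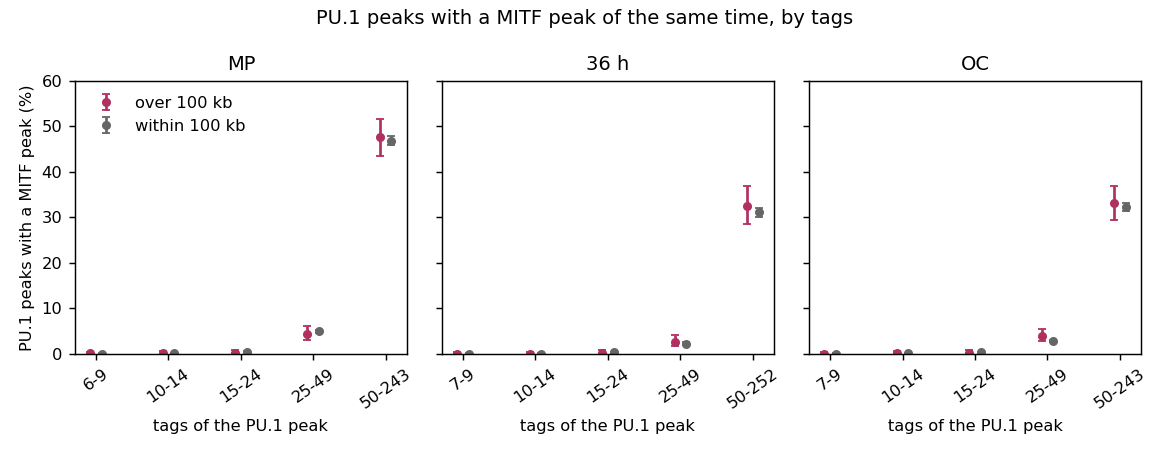
Share of PU.1 peaks (%) that overlapped a MITF peak of the same time, by tags of the PU.1 peak, for peaks over 100 kb (red) and within 100 kb (grey) of a TSS, with 95% Wilson intervals. In the bin of 50 or more tags the far shares were 47.6% in MPs, 32.6% at 36 h and 33.1% in OCs, beside 46.9%, 31.1% and 32.2% for other peaks.

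At a locus, a MITF peak was counted only where it overlapped a PU.1 peak of the same time. By this count, 397 far loci (5.87%) had a MITF peak at any time, against 7.06% of the 95505 other loci, and 106 far loci had one at all 3. Of these 397, 392 were among the 3014 loci with PU.1 at all 3 times, where they made up 13.0%, and none was among the 2448 loci with PU.1 at 1 time. Loci with PU.1 at 1 time had 1 time at which MITF could be counted and the former had 3, so these shares are not like for like. The loci at 1 time were mostly low, with a median highest tag count of 7 or 8. Among MP peaks with 6 to 9 tags, 1 of 1837 far and 7 of 23065 other peaks overlapped MITF. The MITF scores at the leading loci varied. At the Ly86 to Rreb1 locus with the highest PU.1 score, MITF scored 31.2 in MPs, 62.3 at 36 h and 29.7 in OCs. At the tandem repeat near Robo1, PU.1 scored 305.3, 308.9 and 217.3, and MITF scored 55.1, 366.0 and 48.0. The MITF peak there was 263 bp wide at 36 h and 150 bp wide at the other times, so its scores were taken over unequal widths. In the whole MITF list at 36 h, peaks were 150 to 1387 bp wide with up to 1040 tags. All MITF peaks of the MP and OC lists were 150 bp wide, with up to 131 and 94 tags. The part of this difference between lists in the 36 h score was not tested.

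Read from the MITF side, 302 of 315 far MITF peaks in MPs (95.9%, 93.1 to 97.6) overlapped PU.1, 178 of 188 at 36 h (94.7%, 90.5 to 97.1) and 241 of 282 in OCs (85.5%, 80.9 to 89.1). MITF peaks nearer a TSS overlapped PU.1 in 98.2%, 94.7% and 94.0% of cases. In OCs the difference was -8.52 points (-13.16 to -4.80), and -7.66 points (-11.55 to -3.78) when stratified by MITF tags. The 41 far MITF peaks in OCs without PU.1 had a median of 8 tags, the lowest count of that list, and up to 29 tags.

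The IgG library listed 268 peaks on chromosomes 1 to 19 and X, of which 47 (17.5%) were far, and 0 of 14087 far PU.1 peaks overlapped one of them. For the far OC list the upper 95% limit of that share was 0.0797%. Overlap with IgG was rare at any distance, at 0.00525% of all PU.1 peaks in MPs, 0.00556% at 36 h and 0.00520% in OCs. The absence of overlap therefore does not set far peaks apart.

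Far PU.1 sites had fewer PU.1 neighbours than other sites, and yet most were not alone. Another PU.1 peak of the list lay within about 13 kb, a gap often used to join enhancers, of 63.2% of far MP peaks, 59.8% of far 36 h peaks and 61.4% of far OC peaks. The other peaks had such a neighbour in 80.4%, 79.1% and 80.5% of cases, which made differences of -17.23 (-18.63 to -15.85), -19.36 (-20.85 to -17.89) and -19.10 points (-20.51 to -17.71). The median gap to the next peak was 6816 bp for far and 3872 bp for other peaks in MPs, 8279 and 4451 bp at 36 h, and 7243 and 3866 bp in OCs. Set against peaks 10 to 100 kb from a TSS alone, the difference in MPs was -12.70 points (-14.14 to -11.28).

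When far peaks were joined at the same gap, 2982 far MP peaks (61.5%) fell into clusters of at least 2, as did 2555 (57.8%) at 36 h and 2881 (59.8%) in OCs. There were 435, 384 and 426 clusters of 3 or more peaks. Peaks in clusters were higher than single peaks, with median tags of 15 and 10 in MPs, 17 and 11 at 36 h, and 17 and 11 in OCs. The intervals of these medians did not overlap.

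The 6761 far loci formed 2372 single loci, 1064 clusters of 2 to 4, 184 of 5 to 9 and 42 of 10 or more. A peak at all 3 times was found at 34.4% of single loci (32.6 to 36.4), 47.0% of loci in clusters of 2 to 4 (45.1 to 48.9), 54.6% in clusters of 5 to 9 (51.7 to 57.5) and 55.6% in clusters of 10 or more (51.4 to 59.7). A MITF peak at any time was found at 2.82%, 5.53%, 10.3% and 11.4% of these loci. MITF was counted only at times with a PU.1 peak, so loci seen at more times had more times at which it could be counted. The median of the highest tag count rose beside them, from 10 to 13, 17 and 18, and its part in these shares was not tested. For sharing, distance went the other way, with 46.9% of loci at 100 to 200 kb, 39.5% at 200 to 500 kb and 32.2% beyond 500 kb seen at all 3 times. A MITF peak at any time was found at 6.10%, 5.27% and 5.85% of these loci, with no such fall. The median of the highest tag count was 12, 11 and 9 in these distance classes, and its part in the fall of sharing was not tested.

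**Figure D4:**
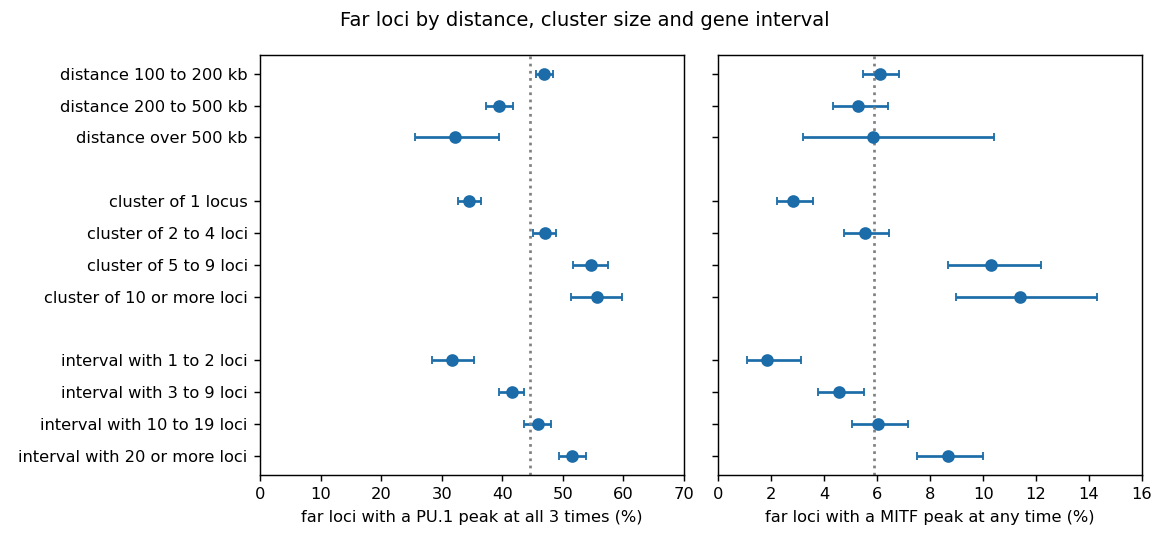
Share of far loci (%) with a PU.1 peak at all 3 times (left) and with a MITF peak at any time (right), by distance from a TSS, by size of the cluster of far loci and by number of far loci in the gene interval, with 95% Wilson intervals and the share over all far loci dotted. The share at all 3 times was 34.4% for single loci and 55.6% in clusters of 10 or more, and it was 32.2% beyond 500 kb. MITF was counted only at times with a PU.1 peak at the locus.

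The cluster with most loci lay on chromosome 15 between Fam49b, an actin regulator gene, and Asap1. It spanned 116 kb and held 26 far loci, of which 23 had a peak in MPs, 22 at 36 h and 22 in OCs. Its summed PU.1 scores were 1856, 1601 and 1731, and 4, 3 and 5 of its loci had a MITF peak at the respective times. The count of peaks and the summed score thus differed little over the 3 libraries.

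A cluster 93.9 kb long between Klf4 and Actl7b held 21 far loci, with summed scores of 1392 in MPs, 1094 at 36 h and 1284 in OCs. A cluster of 83.9 kb between Irf2bp2 and Tomm20 also held 21 loci, with 1397, 1499 and 1333. Between Cd83, a surface protein of activated antigen-presenting cells, and Jarid2, 20 loci in 93.2 kb had summed scores of 923.0, 953.3 and 995.5. Between Gm10797 and Zfp365 there were 18 loci in 49.9 kb with 718.1, 620.9 and 712.1. Between Id2, an inhibitor of basic helix-loop-helix factors, and Rnf144a there were 17 loci in 75.5 kb with 999.5, 817.5 and 1018. In 4 of these 6 clusters the lowest sum was at 36 h. The sums use deposited scores, which moved all pairs by -0.12 on the log2 scale from MPs to 36 h. From 36 h to OCs they moved all pairs by 0.11. The 36 h peaks were also wider than the others, and the part of scaling and width in these sums was not tested.

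The PU.1 core was more frequent at far than at other sites. GAGGAA on either strand was in the central 150 bp of 60.1% of far MP peaks (58.7 to 61.4), 60.3% of far 36 h peaks and 60.4% of far OC peaks, against 54.6%, 55.2% and 55.4% of other peaks. Of 376018 windows of 150 bp taken regularly from far sequence, 14.1% held it. The shorter GGAA, which GAGGAA contains, was in 99.1% of far MP peaks and 79.2% of those windows.

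Part of this difference followed the distance classes near promoters. In MPs GAGGAA was in 45.5% of peaks within 1 kb of a TSS, 55.4% at 1 to 10 kb, 56.8% at 10 to 100 kb, 59.9% at 100 to 200 kb and 60.4% at 200 to 500 kb. Against peaks at 10 to 100 kb alone, the far share was higher by 3.23 points in MPs (1.75 to 4.70), 2.66 at 36 h (1.11 to 4.19) and 2.51 in OCs (1.03 to 3.98). Among MP peaks with 6 to 9 tags, GAGGAA was in 57.6% of far and 50.3% of other peaks. At 50 or more tags it was in 66.0% and 64.1%, a difference of 1.90 points (-2.24 to 5.83). GC content moved with distance as well, from a median of 46.7% at 10 to 100 kb to 41.3% beyond 500 kb in MPs, and its part was not tested.

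Other motifs differed less. The AP-1 motif TGANTCA was in 10.5% of far MP peaks, 12.3% at 36 h and 9.80% in OCs, against 9.45%, 10.7% and 8.44% of other peaks and 4.58% of the far windows. The E-box CACGTG was rarer at far peaks, at 1.88% in MPs and 2.47% for other peaks, and was in 1.05% of the far windows. The E-box CATGTG was more frequent at far peaks in MPs by 1.04 points (0.12 to 2.01) and at 36 h by 1.14 points (0.19 to 2.16), and in OCs the difference was 0.57 points (-0.33 to 1.52). Far PU.1 peaks with a MITF peak held GAGGAA in 68.2% of cases in MPs, against 59.5% without MITF, a difference of 8.68 points (3.04 to 13.87). Of the 302 far MP peaks with MITF, 266 had 50 or more tags, a class in which 66.0% of all far MP peaks held GAGGAA, and the part of peak height in this difference was not tested. The E-box CACGTG was in 1.99% and 1.87% of these sets, a difference of 0.12 points (-1.04 to 2.42), and CATGTG was in 11.3% and 12.2%. At 36 h CATGTG was in 6.18% of far peaks with MITF and 12.1% of those without. A match is a description of these letters and not of a bound factor.

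The far loci were divided among few gene intervals. Of 22202 protein-coding genes, 1931 (8.70%) were the nearest coding gene on one side of a far locus. Far sequence lay beside 2919 coding genes, of which 66.2% flanked a far locus and 1169 flanked 3 or more, with a median of 2 loci per gene. There were 1140 gene intervals with a far locus, and the 209 with 10 or more held 3901 loci (57.7%). Flanking genes are given by position, and no link between a site and a gene was measured.

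The interval between Nmbr, a neuropeptide receptor gene, and the transcriptional co-regulator gene Cited2 held 108 far loci in 2963 kb, of which 50 had a peak at all 3 times. The interval between St3gal1, a sialyltransferase gene, and Zfat held 91 in 1144 kb, and that between Myc, a growth-promoting transcription factor, and Gsdmc held 58 in 1817 kb. Between Rad51l1 and Zfp36l1, whose product destabilises mRNAs, there were 56, between Id2 and Rnf144a 54, and between Cd83 and Jarid2 50. The others of the first 10 were Pard3 to Gm17350 with 49, Gm9869 to Gm10655 with 47, Ly86 to Rreb1 with 46 and Agtr1b to Tbl1xr1 with 46. Ly86 to Rreb1 was the densest of these 10, at 106 far loci per Mb of the interval, and Agtr1b to Tbl1xr1 the least dense at 26.9.

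The interval between Ly86 and Rreb1 was 433 kb long and held 81 PU.1 loci, 46 of them far. Of these 46, 25 had a peak at all 3 times. MITF peaks lay at 3 far loci in MPs, 3 at 36 h and 3 in OCs. The map of this interval shows the highest far peaks at the same places at the 3 times, with many low peaks between them.

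**Figure D5:**
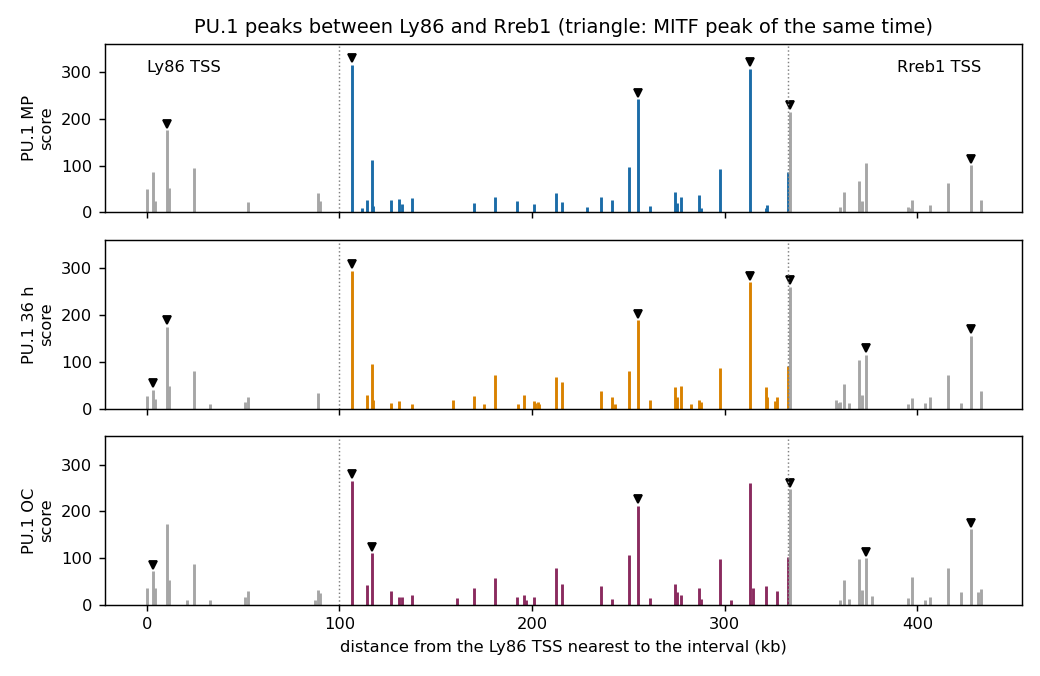
PU.1 peak scores (y axis) in MPs, at 36 h and in OCs along the 433 kb between the TSSs of Ly86 and Rreb1 (x axis, kb from the Ly86 TSS), with far loci coloured, loci within 100 kb of a TSS in grey, dotted lines 100 kb from each TSS and triangles where a MITF peak of the same time overlapped. The highest far peak scored 315.6, 294.1 and 265.8 at the 3 times.

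Genes of myeloid and osteoclast transcription factors stood beside many far loci. Of 56 listed genes in the annotation, 22 (39.3%) lay beside far sequence, against 13.1% of all coding genes. Of these, 20 (90.9%) flanked a far locus, against 66.2% of all coding genes beside far sequence. The median was 14 loci per gene beside far sequence, against 2 over all such genes. The list was chosen with earlier results of these data known, and the counts were not scaled to the length of far sequence. Myc flanked 74 far loci, Klf6 60, Id2 54, Maf 43, Runx1 34, Zeb2 32, Klf4 29, Runx2 25, Bcl6 22 and Satb1 20. Hif1a, of the hypoxia response, flanked 15 and Jun, of the AP-1 family, 13. Egr2 and Ets1 flanked 9 each, Mitf 6, Foxp1 and Nfatc1 5 each and Nfil3 3. Of the 461 far loci beside a gene of the list, 253 (54.9%, 50.3 to 59.4) had a peak at all 3 times, against 44.6% of all far loci, and the median of their highest tag count was 15 against 12.

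The far loci beside the gene of Nfatc1, the main RANKL-induced factor of osteoclasts, were low, with highest scores of 22.2 in MPs, 34.0 at 36 h and 29.4 in OCs. Those beside Mitf reached 15.4, 23.7 and 17.6. Those beside Runx1 reached 310.5, 267.5 and 233.5. The list therefore held genes beside some of the highest far peaks and genes beside low ones.

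Of 31 osteoclast function genes, 5 (16.1%) lay beside far sequence, against 13.1% of all coding genes, with a median of 11 far loci per gene, and Cd47, Snx10 and Car2 flanked 12, 12 and 11 far loci. Car2 encodes the carbonic anhydrase that supplies protons for bone resorption, and its far loci reached scores of 76.8, 60.6 and 74.9. Of the 36 far loci beside these genes, 12 (33.3%, 20.2 to 49.7) were seen at all 3 times. Of 49 macrophage surface and innate genes, 7 (14.3%) lay beside far sequence, with a median of 6 far loci per gene, and Ly86 flanked 52 far loci, Cd83 50, Tlr4 10 and Msr1 6.

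Genes of cell adhesion and synapses and of developmental transcription factors are typical neighbours of large gene-poor regions. Of 53 adhesion and synaptic genes, 51 (96.2%) lay beside far sequence and 45 of these (88.2%) flanked a far locus, with a median of 4 loci. Of 58 developmental factors, 47 (81.0%) lay beside far sequence and 36 of these (76.6%) flanked a far locus, with a median of 2. Far loci beside adhesion and synaptic genes were seen at all 3 times in 37.5% of cases (32.2 to 43.1) and had a median of 9 tags, and those beside developmental factors in 44.0% (37.7 to 50.5) with 13 tags.

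In the adhesion list Pcdh7 flanked 29 far loci, Csmd3 24, Dscam 23, Pcdh17 22 and Cadm1 21. Cdh10, Lrrtm4, Grik2, Robo1 and Cntnap5a flanked 10 to 16 each. Cdh2, Pcdh10, Cntn4, Cntnap2, Gria2, Lrp1b, Pcdh9 and Robo2 flanked 6 to 7 each. Cdh18, Cntn6, Lsamp, Ntm, Kcnd2, Slitrk1, Slitrk6, Cdh12, Cdh8, Cntn5, Odz2 and Opcml flanked 3 to 5 each. The loci beside Robo1 included the tandem repeat described above, and those beside Csmd3 reached PU.1 scores of 225.2, 141.9 and 193.8.

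In the developmental list Sall3 flanked 28 far loci, Tshz1 21, Zfhx3 16 and Sox6 15. Tbx3, Zfpm2, Nr2f1, Gata6 and Zfp521 flanked 10 to 13 each. Sox9, Tox, Zic4, Nr2f2, Sox5 and Gata3 flanked 6 to 9 each, and Zfp536, Otx2, Irx1, Irx4 and Sox4 3 to 5 each. Tshz1 had the highest of these scores in MPs, 199.6, shared by Zfpm2. The far loci beside Sox9, the cartilage factor, reached 40.9 in MPs, 65.0 at 36 h and 55.8 in OCs.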

How the data were processed

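ChIP-Seq peak lists of PU.1 and MITF (MPs, 36 h, OCs) and of IgG (MPs) were used, 1 library each. The deposited scores are a signal: tags per peak, which the authors made with Bowtie2 alignment to mm9 and HOMER peak calling on each library, after CASAVA 1.8 per the submitters' processing notes. Further parameters are not given in the sources used here. Scores were whole multiples of 1 tag to within 0.0501, and tags were recovered from this. If HOMER's default scale of 10000000 tags applies, the PU.1 libraries held 5860000 (MP), 6770000 (36 h) and 6810000 (OC) tags, MITF 8760000 to 10270000 and IgG 3120000. PCR copies are not independent molecules, so intervals cover counting error only. The RefSeq names in the lists were not used.

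TSSs were those of all transcripts of GENCODE M1 on mm9, with flanking genes from its protein-coding transcripts. Peak ends lay within the mm9 chromosome lengths, except that the last on chromosome 19 was at 61342474 against 61342430. Peaks overlapped at 1 bp or more. Peaks joined at gaps up to the stitching distance formed clusters. Shares have Wilson and differences Newcombe 95% intervals, or normal intervals when stratified by 5 tag or GC bins. Tag ratios have exact intervals. The step from 100 to 50 or 200 kb, the protein-coding TSSs, the score minimum, the overlap, stitching, window and scaling were varied. Scripts in Python 3.11.15 used numpy 2.4.6, scipy 1.17.1 and pysam 0.24.0, and were tested on simulated data.

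The members, 5 gene lists and rules were chosen with earlier results of these data known. The text names the 5 highest far peaks of each list, the 3 farthest loci, the clusters with most peaks, the 3 largest gains and losses from MPs to OCs, the 3 highest loci with MITF and at 1 time only at each time, the 10 intervals with most far loci and each listed gene with 3 or more, except for some that are not reported here. Gains and losses were ranked among far loci with a peak in both MPs and OCs. Clusters of merged loci and comparisons by GC and by 10 to 100 kb were added after the data were seen. Repeat content was not used here, since the genome sequence carries no repeat mask.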

Additional observations from a re-analysis of the deposited data

How the results depend on the processing

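No paired analysis was possible because each condition was 1 library, and for the same reason no library could be left out. An alternative that takes TSS distances from the lists themselves was not run, since the columns used here give none. Of the alternatives to single values, 36 left the value within its 95% interval, or a count within 1.5 times, and 43 moved it. Far peaks in MPs, at 36 h and in OCs numbered 9239, 8453 and 9254 with protein-coding TSSs alone, 11956, 10950 and 11834 at 50 kb, 1336, 1188 and 1340 at 200 kb, and 2570, 2184 and 2489 with scores of at least 2 times the lowest. With that score minimum the shares of far peaks found again were 74.2% (MP in 36 h), 87.3% (36 h in OC), 80.7% (MP in OC) and 83.4% (OC in MP), loci at all 3 times 1777, and pairs past 2-fold 109, 45 and 57 (MP to 36 h, 36 h to OC, MP to OC, from 279, 170 and 244). The minimum was set on both lists of each overlap, so low MITF peaks were removed as well as low PU.1 peaks. MITF overlap with the minimum on both lists was 2.65% in MPs, 4.85% at 36 h and 1.89% in OCs. With protein-coding TSSs the share found again was 77.4% for 36 h in OC, loci at all 3 times were 5824, and pairs past 2-fold were 513, 343 and 435. Median tags at 200 kb were 11, 12 and 13, and in OCs 15 at 50 kb. Far peaks in clusters (MP, 36 h, OC) made up 41.4%, 37.0% and 40.2% at 5 kb, 74.2%, 71.4% and 72.7% at 25 kb, and 55.1%, 52.6% and 55.0% with the score minimum. GAGGAA was in 55.6% of far OC peaks in 100 bp and 61.9% with the score minimum. These settings change the members or the window.

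Of 90 alternatives for far minus other differences, chosen after seeing the data, 80 kept the direction and the side of 0. The direction turned in 7: 36 h peaks in MPs were 3.07 points with the score minimum and 0.87 stratified by tags, OC peaks in MPs 0.47 and 0.07, 36 h peaks in OCs 0.52 with the score minimum, and MITF overlap 0.21 at 36 h and 0.29 in OCs stratified by tags. MITF overlap in MPs lost its difference at -0.03 with the score minimum and -0.01 stratified by tags, and at 36 h gained one at -0.78 against peaks at 10 to 100 kb. The lowest PU.1 peaks of each list had 6 or 7 tags, and the part of library depth in these differences was not tested.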
